A study of Mus musculus with 9 samples.

Results

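The Eph, ephrin, semaphorin and guidance genes were described in mouse mammary tumours. They were taken by name: every gene whose symbol in the array annotation begins with Epha or Ephb, Efna or Efnb, or Sema and a digit, with Plxn, with Robo and a digit, or with Unc5, and the genes Nrp1, Nrp2, Slit1, Slit2, Slit3, Ntn1, Ntn3, Ntn4, Ntn5 and Dcc. This gave 70 of the 19938 genes on the array: 13 Eph receptors, 8 ephrins, 20 semaphorins, 11 plexins and neuropilins, 7 Slits and Robos, 9 netrins and netrin receptors, and 2 genes that share only the letters Unc5. Expression was measured on Affymetrix Mouse Gene 1.0 ST arrays in 9 snap-frozen tumours, 3 each from the transplantable mammary tumour lines NDL, Met1 and SSM2. Each line had been cultured and injected on both sides into uncleared mammary fat pads; the hosts were female FVB/NJ mice, 6 to 8 weeks old, and tumours were taken at a width of 5 to 10 mm. As background, the NDL line carries an activated ErbB2 transgene, Met1 descends from a polyoma middle T mammary tumour, and SSM2 is known as positive for hormone receptors. Each group is therefore 1 tumour line with the cells of its host, and no normal mammary gland is in the comparison. The labels give all 9 samples the strain FVB/N, and they do not say whether the 3 samples of a line came from different animals, so each p measures the spread between these samples, which may be technical.

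Eph receptors are receptor tyrosine kinases, and their ligands, the ephrins, sit on the surface of neighbouring cells, so that signals pass in both directions at cell contacts. Semaphorins signal through plexins, with neuropilins as coreceptors for the secreted class, and Slits signal through Robo receptors. Netrins signal through Dcc and the Unc5 receptors. All 4 systems are known as steering cues for growing axons, and also from vessel growth, immune cells, the branching mammary gland and carcinomas.

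Values were log2 signals made by the authors with RMA, which corrects background, equalises the distributions of the arrays and summarises the probes of a gene, so a difference of 1 is 2-fold. The number of arrays limits the precision. The upper quartile of signal over all genes lay between 7.84 and 8.09 on the 9 arrays, lowest in NDL replicates 1 and 2. Over all genes, arrays of 1 line correlated at r from 0.947 to 0.995, against 0.891 to 0.949 between lines, and over the 70 guidance genes at 0.926 to 0.992, against 0.782 to 0.861. These are correlations across genes, which are not independent replicates. The 25th percentile of signal was 4.87, and 5 Y-linked transcripts, absent from female hosts, lay between 2.53 and 3.85. Only Epha3, Epha5 and Epha6 had a mean under that percentile in all 3 lines (4.29% of the guidance genes, against 21.7% of all genes), and they are treated as near background. In bulk tumours, fewer cells of a type and less RNA per cell cannot be told apart.

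Guidance genes differed between the lines in both directions. In limma, with p adjusted by the Benjamini-Hochberg method over all genes and a threshold of 0.05, 24 of 70 passed between NDL and Met1, 12 higher and 12 lower in NDL, or 34.3% against 19.1% of all genes (8.88% higher and 10.2% lower). Between NDL and SSM2 19 passed, 14 higher and 5 lower in NDL (27.1%, against 16.9% of all genes, 9.35% higher and 7.52% lower). Between Met1 and SSM2 18 passed, 13 higher and 5 lower in Met1 (25.7%, against 11.8% of all genes, 7.1% higher and 4.71% lower), a split that became 12 and 8 after cyclic loess normalisation. The arrays of the 2 lines did not overlap for 45 of the 70 genes between NDL and Met1 (64.3%, against 38.2% of all genes), for 27 between NDL and SSM2 (38.6%, against 31.6%) and for 36 between Met1 and SSM2 (51.4%, against 31.7%). The 70 genes were chosen with results of these data known, so these shares are descriptions. The median of the absolute log2 difference was 0.46, 0.36 and 0.38 in the 3 comparisons in that order, against 0.25, 0.28 and 0.18 over all genes. Signed medians were 0.18, 0.11 and 0.09, against 0.06, 0.09 and 0.04.

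Of the 70 genes, 36 passed in at least 1 comparison and 34 in none (48.6%, against 71.3% of all genes). The comparisons share arrays, so the 3 sets of calls are not independent of each other. A line counts below as highest or lowest for a gene that passed in 1 direction against both of the other lines. NDL was the highest line for Epha4, Ephb4, Sema3b, Sema4g, Sema6a, Sema7a and Unc5cl (10% of the guidance genes, against 5.13% of all genes) and the lowest for Efna1, Efnb1 and Nrp1 (4.29%, against 3.59%). Met1 was the highest for Efnb1, Ephb6, Nrp2, Robo1, Sema3e, Sema3f, Sema4f, Unc5b and Unc5c (12.9%, against 4.09%) and the lowest for Epha1 (1.43%, against 2.18%). SSM2 was the highest for Sema3c and Slit2 (2.86%, against 1.91%) and the lowest for Epha2, Ntn1 and Sema5a (4.29%, against 2.26%). Efnb1 was the only guidance gene that passed in all 3 comparisons (1.43%, against 1.73% of all genes).

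**Figure D1:**
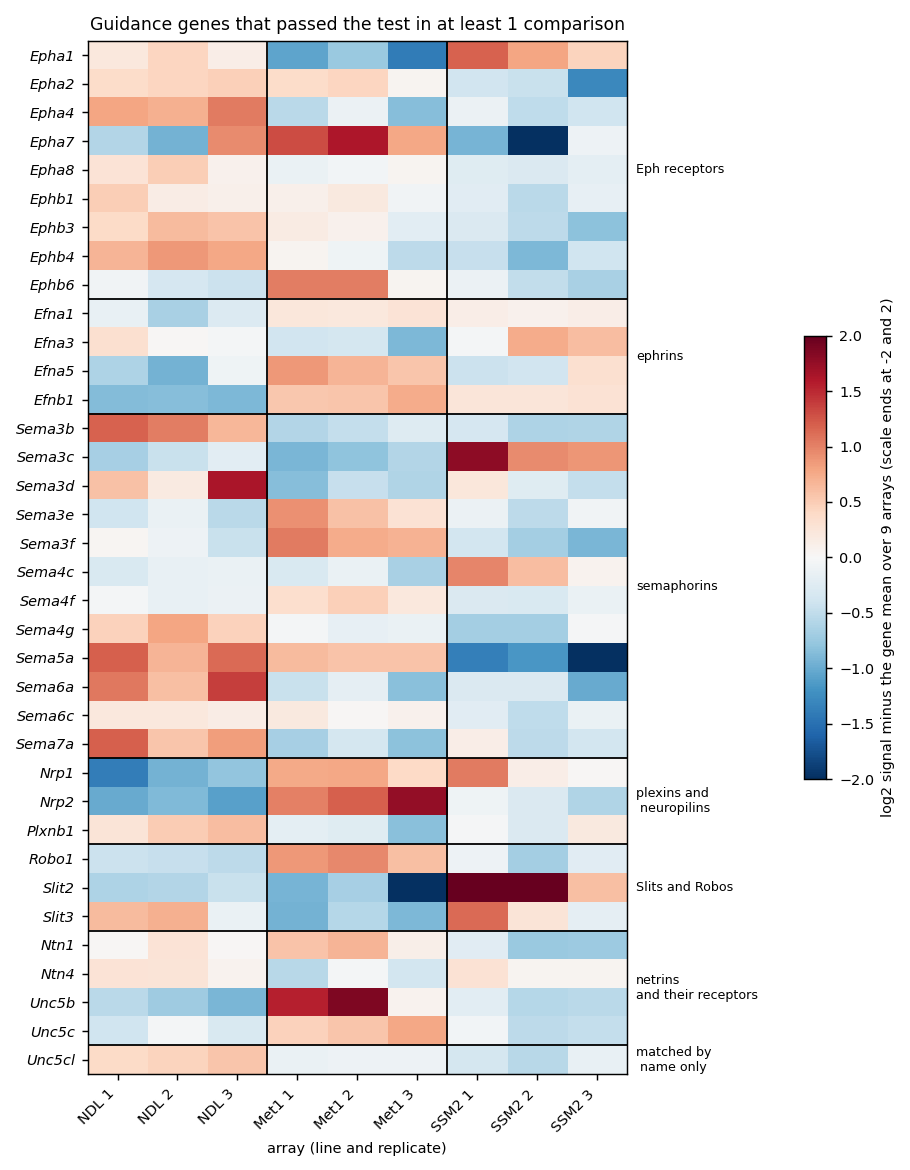
Log2 signal of the 36 guidance genes that passed in at least 1 comparison on each of the 9 arrays (columns, by line and replicate), as the difference from the gene's mean over the 9 arrays. Red is above that mean and blue below it; the colour scale ends at -2 and 2, and black lines separate lines and gene classes.

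**Figure D2:**
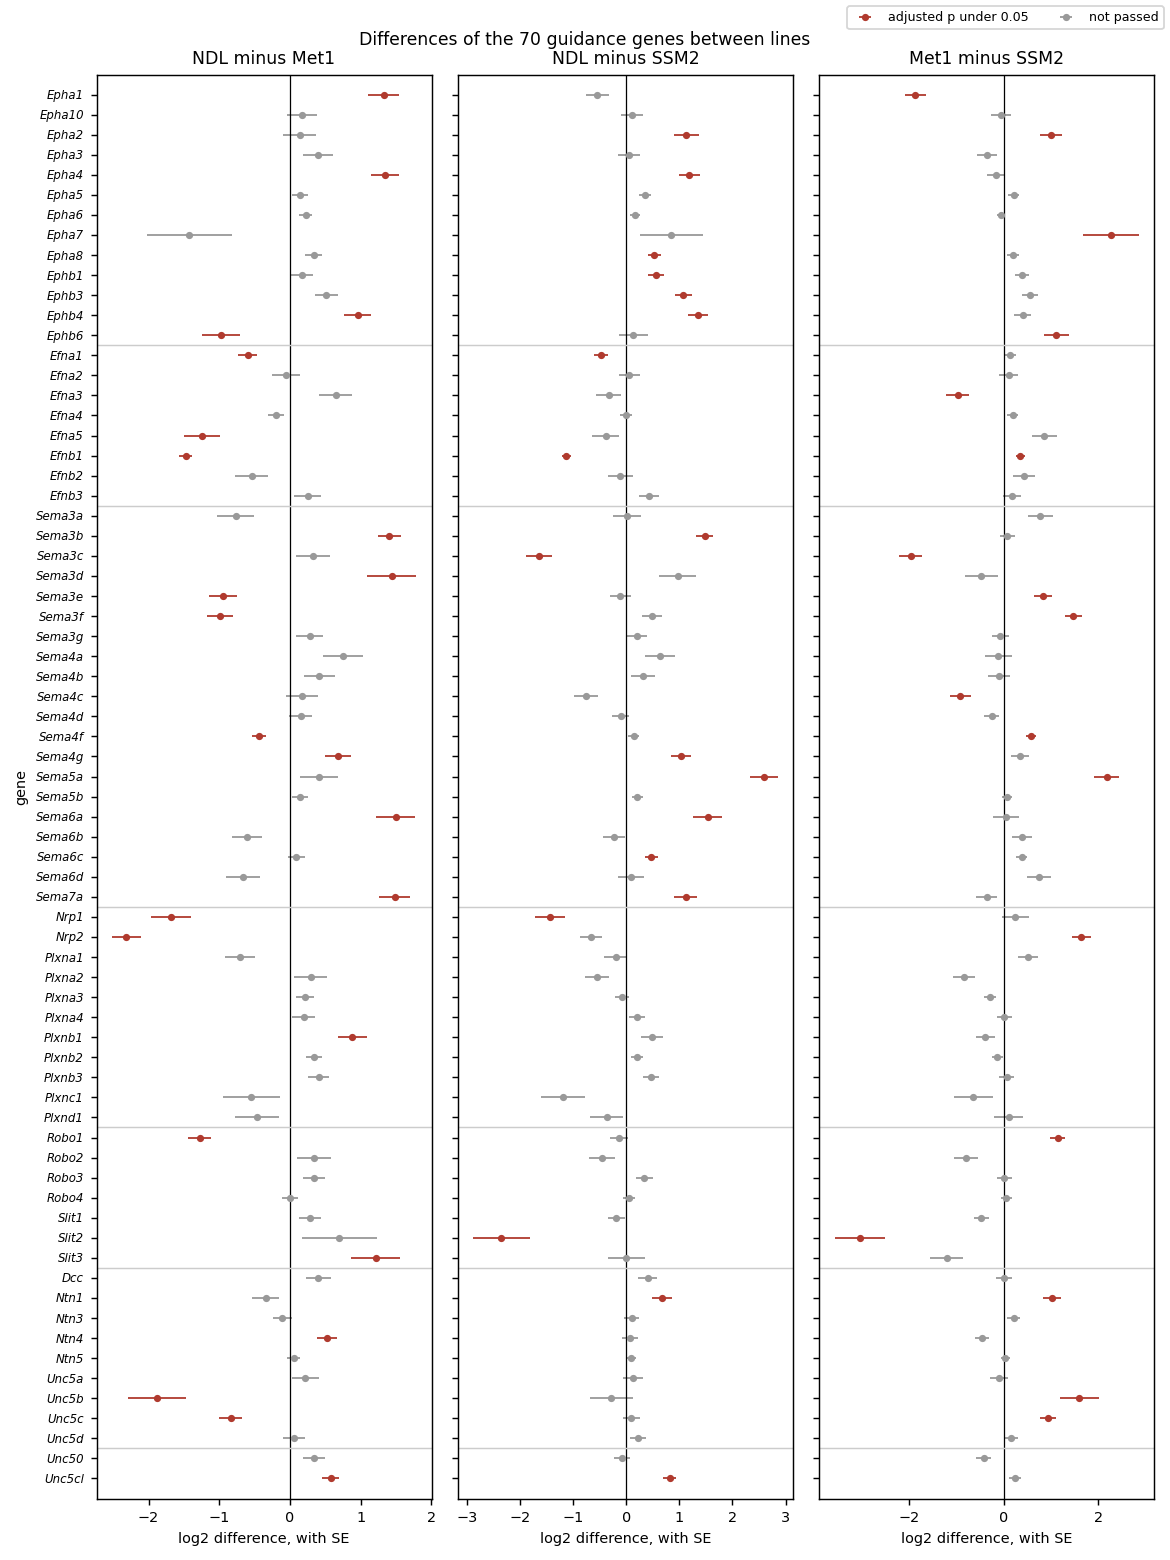
Log2 difference between lines (horizontal axis) for all 70 guidance genes (rows, by class), with the standard error from limma as a bar. Red points passed an adjusted p of 0.05 and grey points did not; 24, 19 and 18 genes are red from left to right.

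The 300 bases around the start of transcription are shown for 1 gene per line, to set the sequence beside genes that were each highest in a different line. RefSeq's promoter table for GRCm38.p6 held 60 of the 70 genes, and among these, the gene highest in a line with the largest smaller difference to the other lines was taken. Sema3b and Sema6a, whose smaller differences in NDL were larger than that of Epha4, were not in that table. Capitals mark the matches in these windows, to the GC box GGGCGG and the TATA box TATAAA; overlapping matches share 1 run. The E2 box CACCTG, known to be bound by Zeb and Snai repressors, and the ETS motif CCGGAAGT were also searched, all on both strands, and matched none of the 3 windows.
Epha4, highest in NDL, minus strand of chr1:77515039-77515338: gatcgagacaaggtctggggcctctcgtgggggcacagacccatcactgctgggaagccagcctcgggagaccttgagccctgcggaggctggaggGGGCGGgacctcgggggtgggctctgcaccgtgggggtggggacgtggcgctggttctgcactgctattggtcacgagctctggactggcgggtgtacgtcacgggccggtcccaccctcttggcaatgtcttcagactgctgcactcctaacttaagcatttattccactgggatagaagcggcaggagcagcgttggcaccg
Nrp2, highest in Met1, plus strand of chr1:62703067-62703366: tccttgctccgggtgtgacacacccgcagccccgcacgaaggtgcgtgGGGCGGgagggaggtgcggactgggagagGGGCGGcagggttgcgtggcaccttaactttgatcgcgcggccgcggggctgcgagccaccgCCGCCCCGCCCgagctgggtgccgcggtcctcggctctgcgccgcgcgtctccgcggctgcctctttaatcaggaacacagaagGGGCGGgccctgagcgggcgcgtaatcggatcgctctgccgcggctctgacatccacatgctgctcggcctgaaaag
Slit2, highest in SSM2, plus strand of chr5:47982905-47983204: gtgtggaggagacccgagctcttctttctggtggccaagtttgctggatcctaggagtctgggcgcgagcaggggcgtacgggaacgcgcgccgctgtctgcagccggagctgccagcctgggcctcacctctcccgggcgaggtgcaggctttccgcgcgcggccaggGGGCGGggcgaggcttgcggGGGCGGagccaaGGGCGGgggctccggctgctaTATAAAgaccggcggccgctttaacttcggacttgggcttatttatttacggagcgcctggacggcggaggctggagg
The windows run from 250 bases before the start to 50 after it. The Nrp2 window held 5 GC boxes, Slit2 3 and Epha4 1, and Slit2 alone of the 3 held a TATA box. GC boxes were in 45 of the 60 guidance promoters (75%, against 35.9% of the promoters of 27025 genes), TATA boxes in 2 (3.33%, against 14.2%), E2 boxes in 8 (13.3%, against 20%) and the ETS motif in 0 (against 4%). The 27025 genes are all those in the promoter table, neither limited to genes on the array nor matched in kind to the guidance genes. A match is a description of the letters in this window.

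Of the Eph receptor genes, Epha4 and Ephb4 were higher in NDL than in both other lines. Against Met1, 3 of 13 were higher in NDL and 1 lower (30.8%, against 19.1% of all genes). Against SSM2, 6 were higher and 0 lower (46.2%, against 16.9%). In that comparison 8 of 13 had an unadjusted p under 0.05, as had 6828 of all 19938 genes. Between Met1 and SSM2, 3 were higher and 1 lower in Met1 (30.8%, against 11.8%). Epha4, a receptor that binds ephrins of both classes, had a signal of 6.47, 6.39 and 6.72 in NDL, 5.15, 5.56 and 4.83 in Met1 and 5.56, 5.18 and 5.28 in SSM2. Every NDL array lay above all 6 others. Epha4 was 2.54-fold higher in NDL than in Met1 (1.35 on the log2 scale, SE 0.20, adjusted p = 0.00215) and 2.27-fold higher than in SSM2 (1.18, SE 0.20, adjusted p = 0.0051). Epha2, a receptor for ephrin-A1 that is known from breast carcinoma, had 9.40, 9.46 and 9.52 in NDL, 9.40, 9.47 and 9.10 in Met1 and 8.66, 8.58 and 7.74 in SSM2. Its NDL and Met1 arrays overlapped (0.14, SE 0.23, adjusted p = 0.714), and both lines were above SSM2, by 1.13 in NDL (adjusted p = 0.0131) and 0.99 in Met1 (adjusted p = 0.0267).

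Ephb4, the receptor of ephrin-B2 known from veins and mammary epithelium, was at 9.62, 9.80 and 9.72 in NDL, 9.0, 8.86 and 8.41 in Met1 and 8.48, 8.04 and 8.55 in SSM2. NDL stood above Met1 by 0.96 (SE 0.19, adjusted p = 0.00838) and above SSM2 by 1.35 (SE 0.19, adjusted p = 0.00199), with no overlap of arrays. Ephb3, another ephrin-B receptor, had 8.69, 8.94 and 8.89 in NDL, 8.48, 8.39 and 8.11 in Met1 and 8.02, 7.80 and 7.50 in SSM2. The 3 lines were in that order without overlap, but only NDL against SSM2 passed (1.07, adjusted p = 0.00312); the difference to Met1 was 0.51 (adjusted p = 0.0573). Epha1, an epithelial Eph receptor, followed another order, at 7.15, 7.36 and 7.07 in NDL, 5.88, 6.19 and 5.54 in Met1 and 8.11, 7.72 and 7.39 in SSM2. It was 2.5-fold higher in NDL than in Met1 (1.32, adjusted p = 0.00387) and 3.65-fold lower in Met1 than in SSM2 (-1.87, adjusted p = 0.00114), while NDL against SSM2 did not pass (-0.55, adjusted p = 0.118).

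Ephb6 and Epha7 had their highest means in Met1. Ephb6, whose kinase domain is known to be inactive, had 7.52, 7.25 and 7.15 in NDL, 8.61, 8.60 and 7.64 in Met1 and 7.48, 7.09 and 6.94 in SSM2, and Met1 replicate 3 lay close to the other lines. It was lower in NDL than in Met1 (-0.98, adjusted p = 0.0377) and higher in Met1 than in SSM2 (1.12, adjusted p = 0.0312). Epha7, a receptor for ephrin-A ligands, had 6.47, 6.11 and 8.00 in NDL, 8.35, 8.66 and 7.83 in Met1 and 6.12, 4.95 and 6.96 in SSM2. The wide spread within NDL and SSM2 (SD 1.01 in each, n = 3) left only Met1 against SSM2 past the threshold (2.27, SE 0.60, adjusted p = 0.0423). Small differences of NDL over SSM2 passed for Epha8 (0.53, adjusted p = 0.0194) and Ephb1 (0.56, adjusted p = 0.0385), both below the median gene. The Ephb1 mean in SSM2 was 4.56, near background and under the 25th percentile of 4.87. Epha10, the other kinase-inactive receptor, passed in no comparison, and neither did the near-background Epha3, Epha5 and Epha6; the log2 differences of these 4 lay between -0.35 and 0.40.

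Several of these calls ended when 1 array was left out. The Ephb6 call between NDL and Met1 ended without NDL 1, 2 or 3, Met1 1 or 2, or SSM2 2 (adjusted p from 0.0571 to 0.131) and after cyclic loess (0.0575). Between Met1 and SSM2 it ended without NDL 1, Met1 1 or 2, or SSM2 2 or 3 (0.0522 to 0.12). Epha7 lost its call without NDL 1, any Met1 array, or SSM2 1 or 2 (0.0702 to 0.141), and Epha2 between Met1 and SSM2 without NDL 1 or Met1 1 or 2 (0.0511 to 0.0982). Epha8 lost it without NDL 1 or SSM2 1 or 2 (0.0504 to 0.0626), and Ephb1 without NDL 1 or 2, any Met1 array, or SSM2 1 or 2 (0.0531 to 0.124) and after cyclic loess (0.0863). The Ephb1 call also ended with the mean of its 2 features. The NDL minus SSM2 difference of the feature not used was 0.31. The Epha4, Ephb4, Ephb3 and Epha1 calls held without any 1 array.

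**Figure D3:**
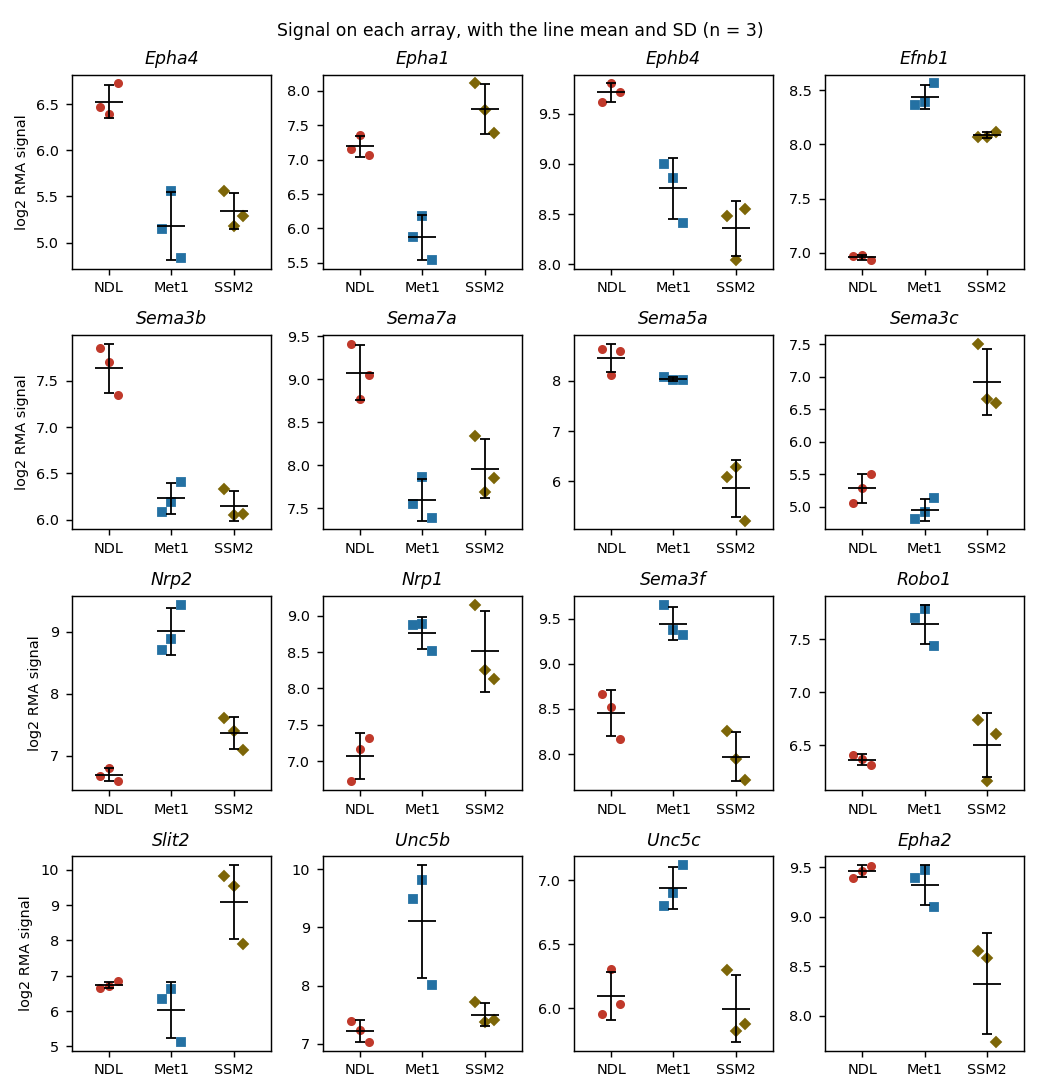
Log2 RMA signal of 16 guidance genes on each array (points), by line, with the line mean and SD (n = 3) in black; each panel has its own vertical axis. The 3 Efnb1 points of NDL lie between 6.93 and 6.98, below all Met1 and SSM2 points.

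Among the ephrin ligands, 0 were higher and 3 of 8 lower in NDL than in Met1 (37.5%, against 19.1% of all genes). An unadjusted p under 0.05 was reached there by 5 of 8, and by 6518 of all 19938 genes. Against SSM2, 0 were higher and 2 lower in NDL (25%, against 16.9%). At an unadjusted p under 0.05 there were also 2, and 6828 of all 19938 genes. Between Met1 and SSM2, 1 was higher and 1 lower in Met1 (25%, against 11.8%). Efnb1, a transmembrane ligand of EphB receptors, had 6.97, 6.98 and 6.93 in NDL, 8.36, 8.39 and 8.56 in Met1 and 8.06, 8.07 and 8.12 in SSM2. The arrays of each line lay close together and the lines did not overlap. Efnb1 was 2.78-fold lower in NDL than in Met1 (-1.48, SE 0.09, adjusted p = 3.94e-05) and 2.18-fold lower than in SSM2 (-1.12, SE 0.09, adjusted p = 0.000135). Met1 exceeded SSM2 by 0.35 (adjusted p = 0.0413), a call that ended without NDL 1, any Met1 array or any SSM2 array (adjusted p from 0.0673 to 0.139), with equal array medians (0.0785) and after cyclic loess (0.0593).

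Efna5, a GPI-anchored ligand of EphA receptors, had 7.49, 7.16 and 8.02 in NDL, 8.97, 8.78 and 8.66 in Met1 and 7.68, 7.73 and 8.43 in SSM2. NDL was 2.37-fold below Met1 (-1.25, SE 0.26, adjusted p = 0.0116), and Met1 lay 0.86 above SSM2 without passing (adjusted p = 0.0717). Efna1, the main ligand of EphA2, had 8.14, 7.64 and 8.01 in NDL, 8.52, 8.50 and 8.56 in Met1 and 8.42, 8.37 and 8.41 in SSM2. It was lower in NDL against Met1 (-0.60, adjusted p = 0.0145) and against SSM2 (-0.47, adjusted p = 0.0431). The first call ended without Met1 1 or 3 (0.0502 to 0.0544), and the second without NDL 2, any Met1 array or any SSM2 array (0.0679 to 0.103), with equal array medians (0.0599) and after cyclic loess (0.0754). Efna3 was lower in Met1 than in SSM2 (5.75, 5.77 and 5.23, against 6.08, 6.86 and 6.74; -0.98, adjusted p = 0.0297), a call lost without any Met1 array or SSM2 2 or 3 (0.0606 to 0.1). Efna2, Efna4, Efnb2, the artery ligand of EphB4, and Efnb3 passed in no comparison, with log2 differences between -0.54 and 0.43.

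Semaphorins, the largest of the guidance classes, held the largest number of calls, 8, 7 and 6 of 20 genes in the 3 comparisons. These shares were 40%, 35% and 30%, against 19.1%, 16.9% and 11.8% of all genes. Eph receptors had a larger share between NDL and SSM2 (46.2%). Between Met1 and SSM2, netrins and their receptors (33.3%) and Eph receptors (30.8%) had larger shares. No line had the high signal for all semaphorins. NDL was higher in 5 and lower in 3 against Met1, and higher in 6 and lower in 1 against SSM2; Met1 was higher in 4 and lower in 2 against SSM2. Among the secreted class 3 semaphorins, which bind neuropilins, Sema3b was the NDL gene. It had 7.85, 7.70 and 7.34 in NDL, 6.08, 6.19 and 6.41 in Met1 and 6.34, 6.05 and 6.07 in SSM2. Its signal in NDL exceeded Met1 2.64-fold (1.4, SE 0.16, adjusted p = 0.000658) and SSM2 2.79-fold (1.48, SE 0.16, adjusted p = 0.000572), and the Met1 and SSM2 arrays overlapped.

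Sema3f, a ligand that acts through neuropilin 2, was highest in Met1, at 8.67, 8.52 and 8.17 in NDL, 9.66, 9.37 and 9.32 in Met1 and 8.26, 7.95 and 7.71 in SSM2. NDL was 1.99-fold below Met1 (-1.0, SE 0.18, adjusted p = 0.00665), and Met1 exceeded SSM2 2.78-fold (1.48, SE 0.18, adjusted p = 0.00154). Sema3e, which binds plexin D1 directly, was lower in NDL than in Met1 (-0.95, adjusted p = 0.0108) and higher in Met1 than in SSM2 (0.84, adjusted p = 0.0263). Sema3c was the SSM2 gene, at 5.05, 5.28 and 5.51 in NDL, 4.8, 4.92 and 5.14 in Met1 and 7.51, 6.66 and 6.60 in SSM2. Its signal was 3.12-fold lower in NDL (-1.64, SE 0.24, adjusted p = 0.00306) and 3.91-fold lower in Met1 (-1.97, SE 0.24, adjusted p = 0.00154) than in SSM2. Sema3d had 5.52, 5.12 and 6.57 in NDL, against 4.09, 4.48 and 4.34 in Met1, near background, and NDL was higher by 1.44 (adjusted p = 0.0222). The Sema3d call ended without NDL 1 or any Met1 array (adjusted p from 0.0531 to 0.08) and after cyclic loess (0.0528), and that of Sema3e between Met1 and SSM2 without NDL 1, Met1 1 or 2, or SSM2 2 (0.0503 to 0.0954).

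Of the membrane-bound semaphorins, Sema7a and Sema6a were higher in NDL than in both other lines. Sema7a, a GPI-anchored semaphorin known to bind integrins and plexin C1, had 9.41, 8.77 and 9.05 in NDL, 7.55, 7.87 and 7.39 in Met1 and 8.34, 7.69 and 7.85 in SSM2. The NDL arrays lay above the rest, by 1.48 on average against Met1 (SE 0.22, adjusted p = 0.00254) and 1.12 against SSM2 (SE 0.22, adjusted p = 0.0116). Sema6a, a transmembrane ligand of plexins A2 and A4, had 8.68, 8.24 and 9.01 in NDL, 7.19, 7.46 and 6.80 in Met1 and 7.35, 7.35 and 6.62 in SSM2. It was 2.82-fold higher in NDL than in Met1 (1.5, SE 0.27, adjusted p = 0.00645) and 2.90-fold higher than in SSM2 (1.54, SE 0.27, adjusted p = 0.00702).

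Sema5a, a transmembrane semaphorin with thrombospondin repeats, gave the largest semaphorin difference, and here SSM2 stood alone. Its signal was 8.64, 8.13 and 8.59 in NDL, 8.08, 8.02 and 8.02 in Met1 and 6.08, 6.29 and 5.22 in SSM2. It was 6.01-fold higher in NDL than in SSM2 (2.59, SE 0.26, adjusted p = 0.000441) and 4.52-fold higher in Met1 than in SSM2 (2.18, SE 0.26, adjusted p = 0.0014), while NDL and Met1 differed by 0.41 (adjusted p = 0.32). Sema4g was higher in NDL by 0.68 against Met1 (adjusted p = 0.0364) and 1.03 against SSM2 (adjusted p = 0.00769). Sema4f was lower in NDL than in Met1 (-0.44, adjusted p = 0.0191) and higher in Met1 than in SSM2 by 0.58 (adjusted p = 0.00781). Sema4c, a ligand of plexin B2, was lower in Met1 than in SSM2 (8.76, 8.94 and 8.41, against 10.05, 9.68 and 9.14; -0.92, adjusted p = 0.0345). Sema6c was higher in NDL than in SSM2 by 0.48 (adjusted p = 0.0262).

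Leaving out single arrays ended the calls of Sema4g and Sema4f between NDL and Met1, of Sema4c and of Sema6c. For Sema4g these were NDL 1 or 2 or any Met1 array (adjusted p from 0.0793 to 0.112), and for Sema4f NDL 2 or Met1 1 or 2 (0.0527 to 0.0818). For Sema4c they were NDL 1 or 2, any Met1 array, or SSM2 1 or 2 (0.0517 to 0.119), and for Sema6c NDL 1 or 2 or SSM2 1 or 2 (0.0505 to 0.0849). Sema4d, the ligand of plexin B1 known from T cells, and Sema4a, known from immune cells, passed in no comparison; their NDL minus Met1 differences were 0.15 (adjusted p = 0.55) and 0.75 (adjusted p = 0.105). Sema3a, Sema3g, Sema4b, Sema5b, Sema6b and Sema6d also passed in none, and the log2 differences of all 8 semaphorins that did not pass lay between -0.77 and 0.78. The 2 features annotated to Sema6b carried the same line means, so they are not separate measurements.

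Both neuropilins and 1 of 9 plexins passed in at least 1 comparison. Of these 11 genes, 27.3%, 9.09% and 9.09% passed in the 3 comparisons, against 19.1%, 16.9% and 11.8% of all genes. Nrp2, the coreceptor of Sema3f that is also known from lymphatic vessels and macrophages, had 6.68, 6.81 and 6.60 in NDL, 8.70, 8.89 and 9.44 in Met1 and 7.61, 7.39 and 7.09 in SSM2. The 3 lines did not overlap. Nrp2 was 4.98-fold lower in NDL than in Met1 (-2.32, SE 0.21, adjusted p = 0.000201) and 3.13-fold higher in Met1 than in SSM2 (1.65, SE 0.21, adjusted p = 0.00157), and NDL against SSM2 did not pass (-0.67, adjusted p = 0.059). Nrp1, a coreceptor of Sema3a and VEGF, had 6.73, 7.17 and 7.32 in NDL, 8.88, 8.89 and 8.51 in Met1 and 9.15, 8.25 and 8.13 in SSM2. NDL was 3.22-fold below Met1 (-1.69, SE 0.28, adjusted p = 0.00397) and 2.71-fold below SSM2 (-1.44, SE 0.28, adjusted p = 0.0102), and the Met1 and SSM2 arrays overlapped.

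Of the 9 plexins, Plxnb1, the receptor of Sema4d and a known partner of ErbB2, was the one that passed. It had 8.20, 8.46 and 8.56 in NDL, against 7.75, 7.70 and 7.11 in Met1, and was higher in NDL by 0.88 (SE 0.20, adjusted p = 0.0174). Its SSM2 arrays, at 7.93, 7.67 and 8.15, passed against neither line, and the call ended without NDL 2 (adjusted p = 0.0543). Near the threshold, Plxna2 was at -0.84 between Met1 and SSM2 (adjusted p = 0.0521), without overlap of arrays, and Plxna1 at -0.71 between NDL and Met1 (adjusted p = 0.0543). Plxnc1, a receptor of Sema7a, had 5.33, 5.97 and 5.70 in NDL, against 6.77, 5.95 and 7.85 in SSM2, a spread that kept it from passing (-1.19, adjusted p = 0.0801). Plxna3, Plxna4, Plxnb2, Plxnb3 and Plxnd1, the receptor of Sema3e, also passed in no comparison. Over all 8 plexins that did not pass, log2 differences ran between -1.19 and 0.52.

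Among Slits and Robos, Slit2 was high in SSM2 and its receptor gene Robo1 in Met1. Slit2, a secreted repellent known to act in mammary ducts, had 6.66, 6.70 and 6.84 in NDL, 6.35, 6.63 and 5.13 in Met1 and 9.82, 9.53 and 7.89 in SSM2. All SSM2 arrays lay above the rest, with replicate 3 closest to them. Its signal was 5.10-fold lower in NDL (-2.35, SE 0.53, adjusted p = 0.0194) and 8.27-fold lower in Met1 (-3.05, SE 0.53, adjusted p = 0.00717) than in SSM2, and the first call ended without NDL 1 or 2 or SSM2 1 or 2 (adjusted p from 0.0574 to 0.0696). Robo1 had 6.41, 6.37 and 6.31 in NDL, 7.71, 7.79 and 7.43 in Met1 and 6.74, 6.16 and 6.60 in SSM2. Robo1 fell 2.43-fold below Met1 in NDL (-1.28, SE 0.16, adjusted p = 0.00113) and 2.21-fold higher in Met1 than in SSM2 (1.14, SE 0.16, adjusted p = 0.00296). Slit3 had 7.66, 7.74 and 6.90 in NDL, 6.08, 6.46 and 6.12 in Met1 and 8.16, 7.28 and 6.85 in SSM2. It was higher in NDL than in Met1 (1.21, adjusted p = 0.0411), a call lost without NDL 1 or 2, any Met1 array, or SSM2 2 (0.0607 to 0.14). Robo2, Robo3, Slit1 and the endothelial receptor gene Robo4, with means of 6.29, 6.29 and 6.23 in NDL, Met1 and SSM2, passed in no comparison, and the log2 differences of these 4 lay between -0.80 and 0.34.

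The netrin receptor genes Unc5b and Unc5c were highest in Met1, where the ligand gene Ntn1 was also above SSM2. Unc5b, a repulsive netrin receptor known from vessel tips and macrophages, had 7.40, 7.23 and 7.03 in NDL, 9.50, 9.81 and 8.00 in Met1 and 7.72, 7.37 and 7.40 in SSM2. Met1 replicate 3 lay between the other Met1 arrays and the other lines. Unc5b was 3.69-fold lower in NDL than in Met1 (-1.88, SE 0.41, adjusted p = 0.0134) and 3.04-fold higher in Met1 than in SSM2 (1.61, SE 0.41, adjusted p = 0.0367). Without Met1 1 the first call ended (0.0544), and the second ended without NDL 1 or 2, Met1 1 or 2, or any SSM2 array (0.0563 to 0.137). Unc5c, a related receptor, had 5.95, 6.31 and 6.03 in NDL, 6.80, 6.90 and 7.12 in Met1 and 6.29, 5.82 and 5.87 in SSM2. It was lower in NDL than in Met1 (-0.84, SE 0.16, adjusted p = 0.00833) and higher in Met1 than in SSM2 (0.94, SE 0.16, adjusted p = 0.0071).

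Ntn1, the founding netrin, had 7.83, 8.08 and 7.83 in NDL, 8.37, 8.49 and 7.91 in Met1 and 7.58, 7.05 and 7.08 in SSM2. NDL and Met1 overlapped, and both stood above SSM2, by 0.67 in NDL (adjusted p = 0.0476) and 1.02 in Met1 (SE 0.19, adjusted p = 0.0111). The NDL call ended without NDL 1 or 2, Met1 1 or 2, or SSM2 2 or 3 (0.0623 to 0.142), and the Met1 call without Met1 1 (0.0519). Ntn4, a netrin of basement membranes, had 6.83, 6.81 and 6.61 in NDL, against 6.00, 6.51 and 6.18 in Met1 (0.52, adjusted p = 0.0408), and its call ended without NDL 1 or 2, Met1 1 or 3, or SSM2 2 (0.0578 to 0.138). Dcc, with means of 5.47, 5.07 and 5.07 in NDL, Met1 and SSM2, passed in no comparison, and neither did Ntn3, Ntn5, Unc5a or Unc5d; the log2 differences of these 5 lay between -0.11 and 0.40. Of the 2 genes matched only by name, Unc5cl, a death domain protein that activates NF-kappa-B, was higher in NDL by 0.58 against Met1 (adjusted p = 0.0109) and 0.82 against SSM2 (adjusted p = 0.00265). Unc50, a Golgi protein, did not pass.

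Genes known as partners or effectors of these receptors are given by list, with the share that passed beside that of all genes (19.1% between NDL and Met1, 16.9% between NDL and SSM2 and 11.8% between Met1 and SSM2). The shares in that order were 35.3%, 29.4% and 23.5% for Eph partners, 33.3%, 18.5% and 22.2% for semaphorin and plexin effectors, 20%, 26.7% and 6.67% for Slit and Robo effectors, and 18.2%, 27.3% and 27.3% for netrin receptor partners. The share of 6.67% for Slit and Robo effectors and that of 18.2% for netrin receptor partners lay below the share of all genes. The shares of 20% and 18.5% lay near it. Of 17 Eph partners, 3 were higher and 3 lower in NDL than in Met1, 4 higher and 1 lower in NDL than in SSM2, and 3 higher and 1 lower in Met1 than in SSM2. Ngef, an exchange factor that binds EphA receptors, was higher in NDL by 1.78 against Met1 (adjusted p = 0.000339) and 1.20 against SSM2 (adjusted p = 0.00288). The exchange factor gene Kalrn (-1.80) and the kinase gene Abl2 (-0.90) were lower in NDL than in Met1, and Src was higher (0.93). Adam10, a protease that sheds ephrins, was lower than in SSM2 in NDL (-2.34, adjusted p = 0.00673) and in Met1 (-1.63, adjusted p = 0.0381). The Src-family kinase gene Fyn was higher than in SSM2 by 1.23 in NDL and 1.95 in Met1, Tiam1 by 0.97 and 1.20, and Abl1 in Met1 by 0.55. The Adam10 call between Met1 and SSM2 ended without NDL 1, any Met1 array or any SSM2 array (0.0624 to 0.13).

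Of 27 semaphorin and plexin effectors and coreceptors, 5 were higher and 4 lower in NDL than in Met1, led by Vegfa (-2.29), a ligand of neuropilins, its receptor gene Flt1 (-1.90), the collapsin response gene Dpysl2 (-1.78) and Timd2 (1.55), a receptor of Sema4a. Against SSM2, 4 were higher and 1 lower in NDL, with Timd2 (1.84), the exchange factor gene Farp2 (1.34), Dpysl5 (1.08) and Rnd2 (0.68) named. In Met1 against SSM2, 4 were higher and 2 lower, with Flt1 (2.01), Dpysl2 (1.25), the macrophage receptor gene Trem2 (1.14) and Gipc1 (-0.93) named. The Dpysl2 call there ended without any Met1 array or SSM2 1 or 2 (adjusted p from 0.0548 to 0.0807) and the Trem2 call without Met1 1 or 3 (0.0602 to 0.0608).

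Of 15 Slit and Robo effectors, 1 was higher and 2 lower in NDL than in Met1, 2 higher and 2 lower in NDL than in SSM2, and 1 higher in Met1 than in SSM2. The Robo-binding GTPase-activating gene Srgap3 exceeded SSM2 by 2.82 in NDL (adjusted p = 0.000791) and 2.04 in Met1 (adjusted p = 0.00473). Arhgap39 was higher in NDL by 1.09 against Met1 and 1.23 against SSM2, Srgap2 (-0.85) was lower in NDL than in Met1, and the proteoglycan gene Gpc1 (-0.72) was lower in NDL than in SSM2. Another proteoglycan gene, Sdc1, was lower in NDL against Met1 (-0.65) and against SSM2 (-0.67). The Srgap2 call ended without NDL 1 or 2 or Met1 2 or 3 (adjusted p from 0.0612 to 0.0815). Gpc1 lost its call without any NDL or Met1 array or SSM2 1 or 3 (0.0537 to 0.106) and after cyclic loess (0.0697). Sdc1 lost its call against Met1 without NDL 2 or any Met1 array (0.0582 to 0.0925), against SSM2 without NDL 2, Met1 1 or 2, or SSM2 1 or 2 (0.0502 to 0.0714), and after cyclic loess in both (0.0797 and 0.0517).

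Of 11 measured partners of netrin receptors, 0 were higher and 2 lower in NDL than in Met1, 3 higher in NDL than in SSM2 and 3 higher in Met1 than in SSM2. Neo1, the netrin and RGM receptor neogenin, was in the order of Met1, NDL and SSM2, with differences of -0.80 for NDL minus Met1, 0.82 for NDL minus SSM2 and 1.62 for Met1 minus SSM2. Its first call ended without NDL 1 or 2 or Met1 2 or 3 (adjusted p from 0.0736 to 0.101) and its second without NDL 1, Met1 2, or SSM2 2 or 3 (0.0516 to 0.087). Its ligand gene Rgma was higher than in SSM2 by 1.26 in NDL and 1.01 in Met1. Rgmb was lower in NDL than in Met1 (-0.89) and higher in Met1 than in SSM2 (0.92). Dapk1, a death kinase that binds Unc5 receptors, was higher in NDL than in SSM2 (1.19), a call lost without NDL 1 or 2 or SSM2 1 or 2 (0.0548 to 0.0705).

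Markers of the cell types that tumours hold moved with some of these genes, and their part in the results was not tested. Shares of a list that passed stand beside 19.1% of all genes between NDL and Met1. Between NDL and SSM2 that share was 16.9%, and between Met1 and SSM2 11.8%. Of 12 luminal epithelial markers, 11 were higher in NDL than in Met1, 2 were lower in NDL than in SSM2, and all 12 were lower in Met1 than in SSM2. The list mean ran from 9.80 to 9.98 on the NDL arrays, from 5.99 to 7.45 on the Met1 arrays and from 10.77 to 10.90 on the SSM2 arrays. Met1 replicate 3, the lowest in that list, was also the lowest Met1 array for Unc5b, Ephb6, Ephb4 and Epha1. It was likewise the lowest for Epha2, Epha4, Ephb3, Plxnb1, Robo1, Nrp1, Ntn1 and Slit2, among others. Its mean over the 70 guidance genes was 6.66, against 6.80 and 6.84 in Met1 replicates 1 and 2. Of 12 macrophage markers, 9 were lower in NDL than in Met1 (75%). In NDL 1 was higher and 1 lower than in SSM2 (16.7%), and 5 were higher in Met1 than in SSM2 (41.7%). Their mean lay between 8.56 and 9.19 on NDL arrays, 9.91 and 10.17 on Met1 arrays, and 8.26 and 9.67 on SSM2 arrays, beside the high Nrp2 and Unc5b of Met1. Within Met1, replicate 3 had the highest macrophage mean and the highest Nrp2, but the lowest Unc5b. Of 12 fibroblast markers, 4 were higher and 2 lower in NDL than in Met1 (50%). In NDL 1 was lower than in SSM2 (8.33%), and in Met1 2 were higher and 4 lower than in SSM2 (50%). The fibroblast list mean was 10.19, 9.38 and 8.67 in SSM2 replicates 1 to 3. Slit2, Sema3c and Nrp1 had their highest SSM2 value in replicate 1 and their lowest in replicate 3. The macrophage (9.67, 9.01 and 8.26), endothelial (7.41, 7.14 and 6.85), T cell (5.77, 5.37 and 5.05) and adipocyte (7.47, 6.89 and 5.70) list means fell in that order too. The B cell, Schwann and nerve, luminal and basal list means did not.

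Of 13 endothelial markers, 3 were lower in NDL than in SSM2 (23.1%, against 16.9% of all genes). Between Met1 and SSM2 1 was lower in Met1 (7.69%, against 11.8%), and 0 passed between NDL and Met1 (against 19.1%). The array means lay between 6.65 and 6.83 in NDL, 6.61 and 6.87 in Met1, and 6.85 and 7.41 in SSM2. The NDL and Met1 ranges overlapped. Of 11 Schwann cell and nerve markers, Sox10, Erbb3, S100b and Mbp were higher in NDL than in Met1, and all of these but Erbb3 were also higher than in SSM2; Erbb3 was lower in Met1 than in SSM2. For 3 of the 11 the mean was under the 25th percentile in each line. Between NDL and Met1 36.4% of that list passed, between NDL and SSM2 27.3%, and between Met1 and SSM2 9.09%. Of 11 basal and myoepithelial markers, 4 were higher in NDL than in Met1, 1 was higher and 5 lower in NDL than in SSM2, and 6 were lower in Met1 than in SSM2. Of 9 T cell markers, 2 were lower in NDL than in Met1 (22.2%) and 2 higher in Met1 than in SSM2 (22.2%). For B cell markers (6 genes) and adipocyte markers (8 genes) 0 passed in limma in any comparison.

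**Figure D4:**
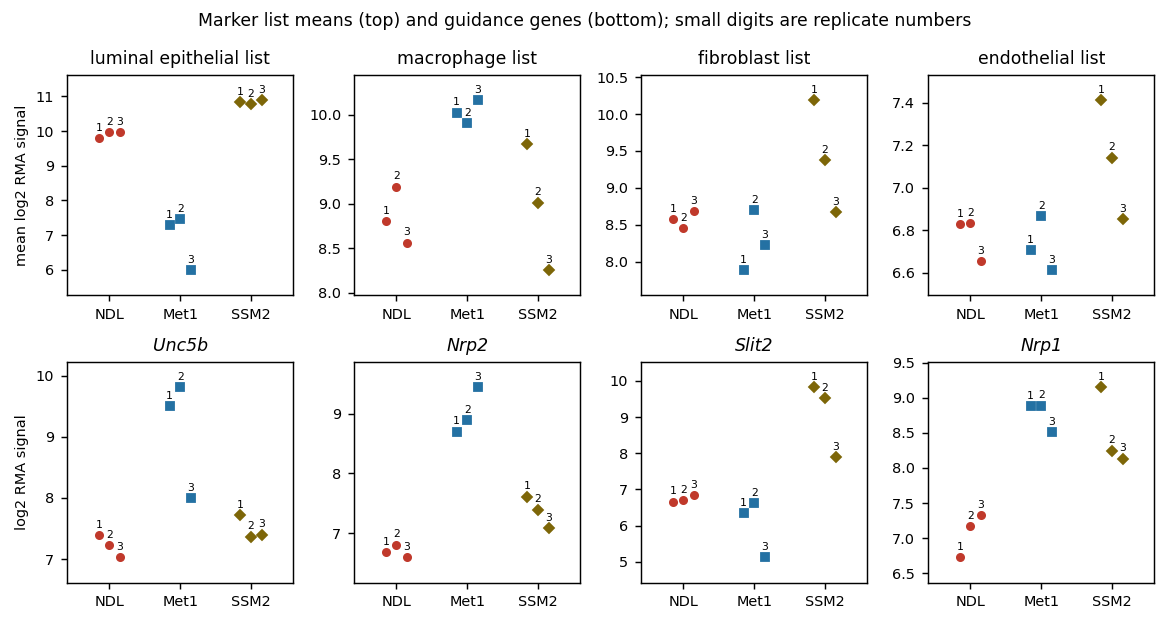
Mean log2 signal of 4 marker lists (top row) and log2 signal of 4 guidance genes (bottom row) on each array, by line, with replicate numbers as small digits. Met1 replicate 3 is the lowest Met1 array for the luminal list (5.99), the endothelial list (6.61), Unc5b (8.00), Slit2 (5.13) and Nrp1 (8.51). SSM2 replicate 3 is the lowest SSM2 array for the fibroblast (8.67), macrophage (8.26) and endothelial (6.85) lists. It is also the lowest SSM2 array for Slit2 (7.89), Nrp2 (7.09) and Nrp1 (8.13).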

How the data were processed

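The deposited log2 signals of 35556 features were produced by the authors using RMA in oligo 1.40.2, per the submitters' processing notes. No source used here gives scan dates or a genome build, so array batches were not examined. Per the labels, RNA was isolated with a kit for fixed tissue and 100 ng was amplified. Features with 1 gene symbol (21789; 1621 had several, 12146 none) were kept, with names updated through RefSeq (GRCm38.p6), and where a gene had several features the 1 brightest on average was used, leaving 19938 genes and no filter. Among the guidance genes 5 had more than 1 feature. The values were fitted on all 9 arrays in limma 3.58.1 (R 4.3.3; lmFit and eBayes, 6 residual and 2.42 prior degrees of freedom) with 3 contrasts between lines (two-sided p, Benjamini-Hochberg adjustment across all genes per contrast, threshold 0.05). Errors of differences are standard errors of the fit.

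Members, lists, tests and alternatives were chosen with earlier results of these data known, so no list is independent evidence. Per class and comparison, up to 4 called members with the largest differences, and Epha2 and Epha4, got their value on every array; other called members are named with their difference, and members that did not pass by name, with a range of differences per class and values for a few chosen after they were seen. Partner lists name up to 4 called genes per comparison, the largest differences first. The fit was tested on simulated data with 200 of 19938 genes changed and independent normal noise. Of 2-fold changes 59.5% were recovered between NDL and Met1, 61% between NDL and SSM2 and 58% between Met1 and SSM2. In the real comparisons a larger share of genes passed (11.8% to 19.1%), so these recoveries do not carry over to them. Replicate numbers of the titles were checked for pairing: deviations from the line means of same-numbered arrays correlated between -0.35 and 0.29. For arrays of different numbers the range was -0.33 to 0.34, which overlaps it. Figures were drawn with matplotlib 3.10.9 (pandas 2.3.3).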

Additional observations from a re-analysis of the deposited data

How the results depend on the processing

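Of the 61 calls of guidance genes, 37 held without any 1 array, 15 under every alternative, and none changed direction. Without 1 array, called members numbered 16 to 31 between NDL and Met1 (beside 11.9% to 33.3% of all genes). They numbered 14 to 26 between NDL and SSM2 (9.39% to 35.2%) and 9 to 20 between Met1 and SSM2 (6.82% to 13.8%). The highest NDL counts came without NDL replicate 3. There 31 of 70 passed against Met1, beside 33.3% of all genes. Against SSM2 26 of 70 passed, a share close to the 35.2% of all genes. Met1 against SSM2 gave 11 without NDL replicate 1, 9 without Met1 replicate 1 and 11 without Met1 replicate 2, against 18 with all arrays. The shares of all genes were 9.54%, 6.82% and 7.2%, against 11.8% with all arrays. With a minimum fold of 1.5 (limma's treat), a stricter question, 7, 5 and 6 passed in the 3 comparisons. Of all genes, 4.37%, 3.23% and 2.72% passed there. With NDL replicates 1 and 2 both left out, so that the lone NDL array is taken to vary like the others, 10, 6 and 11 passed. Between Met1 and SSM2, array weights gave 29 (beside 20.1% of all genes) and the 2 lines alone 11 (beside 11.6%). The cause was not tested. The other alternatives (equal medians, cyclic loess, a filter at the 25th percentile, trend with robust fitting, the mean of features) kept each count within 1.5 times. Equal medians and cyclic loess moved the median difference of all genes by at most 0.09. With the replicate number as a block, 22, 17 and 16 passed, beside 16.8%, 13.9% and 9.87% of all genes. In the titles the samples share only a number, and 3 of 9 arrays correlated best with an array of their own number. With 3 arrays per line, this check cannot decide whether the numbers pair the samples. Signals near the 25th percentile limit what dim genes such as Epha3, Epha5 and Epha6 can show.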
